A study of Saccharomyces cerevisiae with 9 samples.

Results

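The genes described here are the 240 protein-coding genes whose nucleosome signal showed the least regular alternation at the repeat length of a nucleosome array, over a window of just under 1000 nucleotides (nt) from the transcription start site (TSS). They were chosen by that measure from 2404 genes with a mean signal of at least 3 RPM (reads scaled to the depth of the library), among 2426 genes in the table. The window, called the body, holds the 40 bins from 0 nt onward at steps of 25 nt, and the repeat length, called the array period, is the whole number midway between 160 and 170 nt. For each gene the signal of these bins was divided by its mean, 1 was subtracted, and the modulus of the Fourier sum at the array period was taken. The lowest 10% of genes were kept as members. The modulus is given below as an amplitude, which is the height of a cosine wave of that period above the mean, in percent of the gene's own mean signal.

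The signal comes from total histone MNase-Seq of WT Saccharomyces cerevisiae, isogenic to BY4741. The paper gives a culture density for the Rpb3-FLAG and Nrd1-TAP cells but none for the MNase-Seq cells. Micrococcal nuclease cuts the linker DNA, and the DNA protected by nucleosomes is sequenced. The study asked how the RNA Polymerase II CTD phosphatase Rtr1 acts on termination, and the MNase-Seq data served as a reference for chromatin along the average gene. The tables of 1 of the 9 samples were analysed here, while the Rpb3-FLAG and Nrd1-TAP samples of WT and rtr1Δ cells were not analysed here, so that no genotypes were compared. The tables hold no replicate values, so no test was made, no value has a replicate error and every comparison between groups of genes is a description of this library.

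In most yeast genes a nucleosome-depleted region lies just upstream of the TSS, the +1 nucleosome sits at its downstream edge, and further nucleosomes follow at a regular spacing into the gene. Remodelers such as ISW1, CHD1, ISW2 and INO80 set this spacing and place the +1 nucleosome, and general regulatory factors such as Reb1, Abf1 and Rap1 help to keep the promoter open. A profile of a cell population shows the alternation only where nucleosomes take the same positions in most cells, which is called phasing. It is most regular near the +1 nucleosome and fades with distance into the gene. Where a gene is short, the array of the next gene or promoter comes into view in the same window.

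The sequences around the start codon of 3 members and of 1 gene from the opposite end of the ranking are given to show what lies in these promoters. Each holds 250 bases before and 50 bases from the start codon onward, on the gene's own strand, from the NCBI RefSeq R64 assembly, which is the assembly of sacCer3. MRPL6 at chrVIII:393234-393533 on the minus strand is the member with the lowest modulus. MNN1 at chrV:153270-153569 on the plus strand is the member with the most even signal over the body. COF1 at chrXII:40365-40664 on the minus strand is the lowest-ranked member with the Reb1 core TTACCCG. COQ8 at chrVII:284192-284491 on the plus strand, which is no member, has the highest modulus of the genes with that core, no copy elsewhere and no bin over 15 RPM in the body. Capitals mark matches to the Reb1 core or to TATAAA on either strand, and in COF1 and COQ8 the core is read from the other strand as CGGGTAA.
MRPL6: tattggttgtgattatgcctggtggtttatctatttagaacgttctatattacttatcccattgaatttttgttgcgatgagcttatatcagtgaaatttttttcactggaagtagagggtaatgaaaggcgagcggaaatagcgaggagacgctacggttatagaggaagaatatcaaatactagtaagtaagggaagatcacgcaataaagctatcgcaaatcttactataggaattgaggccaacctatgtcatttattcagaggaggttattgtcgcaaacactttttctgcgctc
MNN1: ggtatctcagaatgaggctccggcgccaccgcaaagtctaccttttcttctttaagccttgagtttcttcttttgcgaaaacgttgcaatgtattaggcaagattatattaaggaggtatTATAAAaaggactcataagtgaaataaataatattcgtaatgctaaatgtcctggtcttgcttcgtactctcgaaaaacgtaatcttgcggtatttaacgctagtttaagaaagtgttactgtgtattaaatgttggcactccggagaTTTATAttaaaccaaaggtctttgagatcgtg
COF1: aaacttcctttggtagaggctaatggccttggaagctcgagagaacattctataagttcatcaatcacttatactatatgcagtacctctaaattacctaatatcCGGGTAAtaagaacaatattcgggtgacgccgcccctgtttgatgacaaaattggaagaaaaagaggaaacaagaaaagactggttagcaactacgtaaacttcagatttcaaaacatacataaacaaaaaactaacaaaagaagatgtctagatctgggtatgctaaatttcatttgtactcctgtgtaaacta
COQ8: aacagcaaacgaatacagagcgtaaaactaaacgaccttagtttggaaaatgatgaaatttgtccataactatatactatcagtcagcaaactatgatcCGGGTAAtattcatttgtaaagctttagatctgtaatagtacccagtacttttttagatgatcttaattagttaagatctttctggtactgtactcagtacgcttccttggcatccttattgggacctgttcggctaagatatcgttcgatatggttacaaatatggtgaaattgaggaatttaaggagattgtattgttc
In COF1 the Reb1 core begins at base -145 and in COQ8 at base -151, counted from the A of the start codon. COF1 had a signal of 3.22 RPM in the depletion and 8.55 RPM at +1, and COQ8 had 4.45 and 12.4 RPM. These stretches are counted from the TSS, so where the core lies in them is not known. The amplitude at the array period was 2.47% in COF1 and 29.8% in COQ8. A gene with the core and with a depletion lower than +1 thus stood at both ends of the ranking. MRPL6 holds none of the marked letters, and MNN1 holds TATAAA once on each strand.

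The edge values of the profiles were whole multiples of 0.03002 RPM, the worth of 1 read, in 9704 of 9704 cases within 0.01 of a whole number. This step stands for a library of 33313700 reads. A base of the body was covered by a median of 192.5 reads in the members and by 209.7 reads over all genes. Counting alone gives an amplitude of 2.73% to 3.96% in the median member, depending on how far the extension of reads smooths the signal. Of the 240 members, 33 lay below the lower estimate for their own coverage and 69 below the higher, so the order among these is not resolved at this depth. The same error bears on the values of all other genes. Close ranks among the other members, and at the cut between members and other genes, are therefore not resolved either. These estimates cover counting error only.

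The amplitude of the members at the array period had a median of 4.96% (quartiles 3.73% and 6.11%), beside 14.9% (10.3% and 19.2%) over all 2404 genes. These values chose the members and are a description. The limit falls in a dense part of the ranking. The last genes inside it were SKS1, a protein kinase, at 6.83%, NAR1, needed for the assembly of iron-sulfur proteins, at 6.86% and AIR1, a subunit of the nuclear RNA surveillance complex TRAMP, at 6.87%. The first outside it were CYB2, a lactate dehydrogenase, at 6.87%, ODC2, a mitochondrial carrier, at 6.87% and NNR2 (YKL151C) at 6.89%. Membership also depends on the period and on the window, since 150 of the 240 members were found again at a period of 160 nt or of 170 nt, 130 with the body taken from 150 nt onward and 111 with the body taken from 0 to 650 nt.

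In the mean profile of the members the alternation was nearly lost. The mean signal rose from 5.17 RPM at -75 nt to 7.70 RPM at 25 nt, a ratio of 1.49, and then stayed between 5.18 and 6.15 RPM from 150 nt to the end of the body. Over all genes the signal rose from 4.18 to 9.07 RPM, a ratio of 2.17, and varied by 1.98 RPM over the same stretch. In the 240 genes with the highest modulus it rose from 3.87 to 10.8 RPM and varied by 3.89 RPM. The first peak upstream of the depletion, between -250 and -200 nt, which the choice did not use, was 6.63 RPM in the members and 7.81 RPM over all genes.

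**Figure D1:**
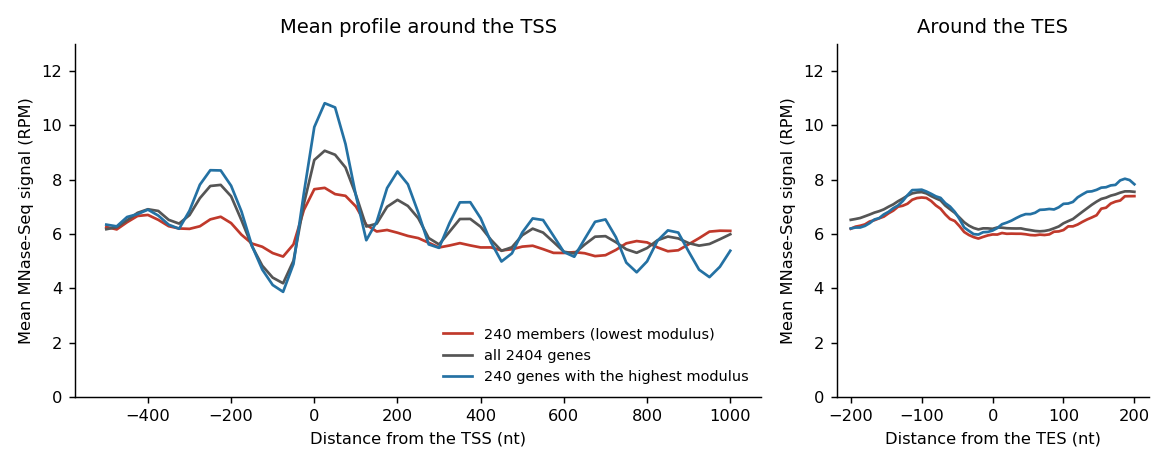
Mean MNase-Seq signal in RPM against the distance in nt from the TSS (left) and from the transcription end site, TES (right), for the 240 members, all genes and the 240 genes with the highest modulus. The lines of the members stay between 5.18 and 6.15 RPM from 150 nt to the end of the body, while the other lines show a row of peaks, and at the TES the lines of the members and of all genes lie close together.

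A flat mean does not make each gene flat, and the data go partly against the name unphased. The signal of a member varied over its body with a median coefficient of variation (CV, the standard deviation over the bins in percent of the mean) of 26.3% (quartiles 20.9% and 33.3%). Over all genes it was 29.2%, and in the 240 genes with the highest modulus 38.7%. The number of peaks with a prominence of at least 10% of the mean had a median of 6 in the members and of 6 over all genes. Of 1132 distances between neighbouring peaks in the members, 301 (26.6%) lay within 140 to 190 nt, beside 39.6% over all genes and 52.5% in the genes with the highest modulus. The members are therefore called by the rule below, and not unphased.

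The members were sorted into 3 classes, using the lower quartile of the amplitude over all genes, 10.3%, as the limit for a clear alternation. The body was also cut into a first part of the 20 bins below 500 nt and a second part of the 20 bins from 500 nt onward. In 83 members both parts reached the limit at the array period and stood more than 90° out of phase, so that the peaks of the first part fell nearer to the troughs than to the peaks of the second when both were extended. A further 77 members had an amplitude above the limit at some other period between 130 and 210 nt. The remaining 80 members had neither. An amplitude above the limit between 130 and 210 nt, without parts out of phase, was found in 32.1% of members. Over all genes the share was 79.02%, but there the array period itself counts. Neither pattern was found in 33.3% of members and in 6.74% of all genes. The rule keeps members below the limit at the array period, so both differences follow in large part from the choice. They do not compare waves of another period. The out-of-phase pattern was found in 34.6% of members and in 14.3% of all genes. The modulus is the sum of the waves of both parts, so opposite phases lower it by construction and the count describes how these genes came to be members.

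A wave of another period also drifts out of phase between the parts. Of the 83 members with parts out of phase, 82 also reached the limit at some period between 130 and 210 nt, as did 340 of 342 such genes among all annotated genes, since 93.2% of all genes reach it at some period. Arrays of another spacing and arrays that are shifted against each other cannot be told apart in these profiles. The highest amplitude over these periods had a median of 13.3% (quartiles 9.14% and 17.2%) in the members and of 18.01% over all genes. It lay from 180 nt to below 190 nt in 58 members (24.2%, beside 7.53% of all genes), from 190 nt to below 200 nt in 40 (16.7%, beside 6.24%) and from 200 to 210 nt in 50 (20.8%, beside 13.4%). It lay from 140 nt to below 150 nt in 32 members (13.3%, beside 3.04% of all genes) and from 150 nt to below 160 nt in 32 (13.3%, beside 18.3%). Only 9 members had it from 160 nt to below 180 nt. The rule itself brings this about, and so moves the best period of members to either side. Over periods of 130 to 210 nt the median amplitude of the members exceeded that of all genes only from 140 to 144 nt. At 143 nt it was 7.09% in the members and 6.89% over all genes. At 185 nt the median amplitude was 9.12% in the members and 10.08% over all genes, and at 149 nt 7.90% and 9.41%.

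**Figure D2:**
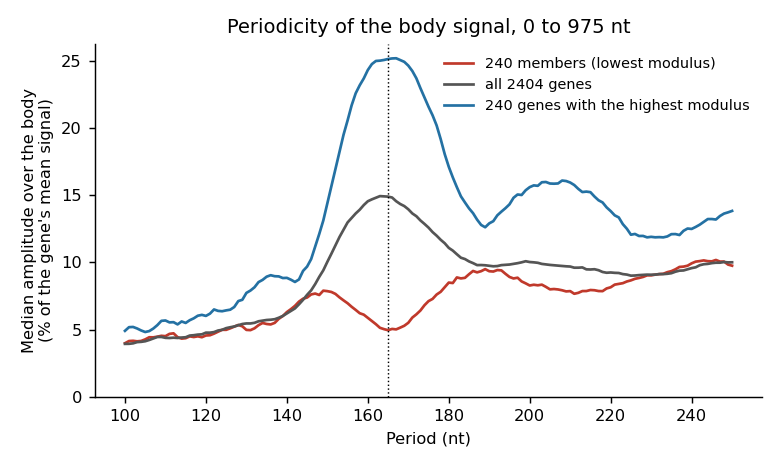
Median amplitude over the body, in percent of each gene's mean signal, against the period in nt, for the members, all genes and the genes with the highest modulus. The dotted line marks the array period, where the members fall to 4.96% and all genes reach 14.9%, and the members rise on either side of it.

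Within the parts, the members were not without alternation. Amplitudes here are in percent of the mean of the part. The amplitude at the array period in the first part had a median of 11.2% in the members and of 19.5% over all genes. In the second part it was 9.55% in the members and 13.9% over all genes. The phases of the parts differed by a median of 138° in the members and of 49.6° over all genes. In the members with parts out of phase the amplitudes were 16.9% and 16.3%, and in the members with neither pattern 7.01% and 6.62%.

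**Figure D3:**
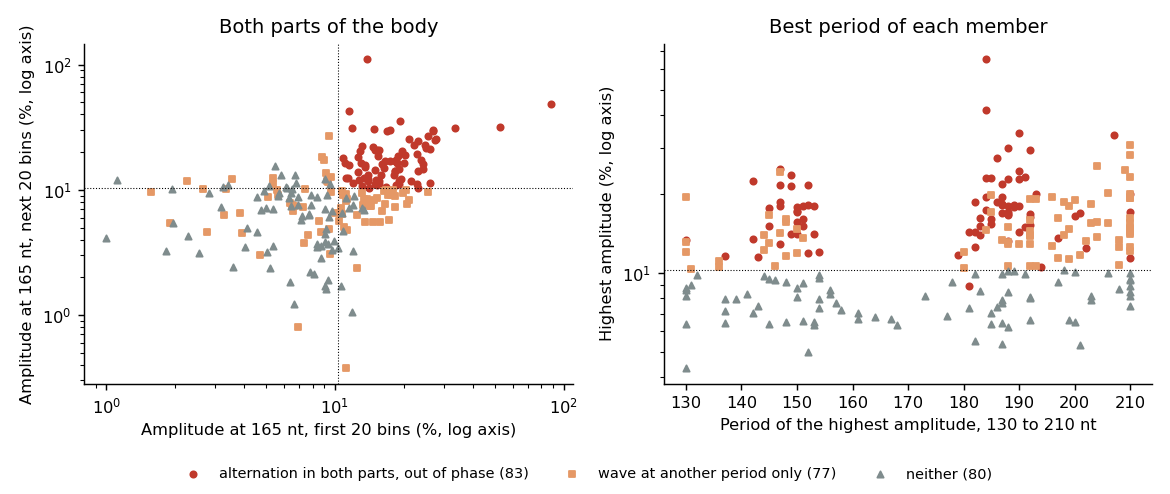
Each point is 1 member. Left, amplitude at the array period in the first part of the body (below 500 nt) against that in the second part (from 500 nt). Both are in percent of the mean of the part, on log axes. Right, highest amplitude over the whole body in percent (log axis) against the period in nt at which it was found. Dotted lines mark the limit of 10.3%; the 83 members with parts out of phase lie in the upper right of the left panel, and few points of the right panel lie between 160 and 180 nt.

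MRPL6 (chrVIII:392639-393283), a protein of the large subunit of the mitochondrial ribosome, had the lowest modulus of all, an amplitude of 0.17%. Its signal fell to 1.68 RPM at -125 nt, reached 11.8 RPM at 50 nt, and peaked again at 225 nt (8.48 RPM) and 350 nt (6.55 RPM). It then sank to 3.14 RPM at 700 nt and rose to 12.4 RPM in the last bin. The profile of MRPL6 thus holds a deep depletion, a high +1 peak and further peaks of falling height. Its parts had amplitudes of 26.99% and 29.5% and stood 179.3° apart. The coding sequence is 645 nt long, and the rise at the far end lies further than that from the TSS. Where the start codon lies in the window is not known.

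YAR1 (chrXVI:99484-100086), an ankyrin-repeat chaperone of a ribosomal protein, showed the same form more clearly. Its peaks lay at 0 nt (11.4 RPM), 200 nt (9.64 RPM) and 350 nt (6.88 RPM), and on the far side at 600 nt (6.33 RPM), 750 nt (9.72 RPM) and 950 nt (8.70 RPM). The amplitudes of its parts were 33.5% and 30.96% at a difference of 178°, and the amplitude over the whole body was 2.21%. The peaks nearest the middle were the lowest of each row. The coding sequence of YAR1 is 603 nt long, and the peaks from 750 nt lie further than that from the TSS. Where its start codon lies in the window is not known.

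CCW12 (chrXII:369697-370098), an abundant cell wall mannoprotein, had its highest signal upstream of the TSS, 12.1 RPM at -75 nt, where the average gene is depleted. Its lowest upstream bin lay at -175 nt (2.57 RPM). Within the body it alternated strongly, from 9.55 RPM at 100 nt to 1.32 RPM at 200 nt and from 1.93 RPM at 550 nt to 8.77 RPM at 650 nt. The amplitude was 34.2% at 190 nt and 6.11% at the array period. CCW12 was a member with an uneven body.

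Other members reached a high wave through a single tall peak. BFR2, a factor of ribosome biogenesis, rose to 23.8 RPM at 250 nt and lay between 2.82 and 5.33 RPM from 350 to 600 nt. Its highest amplitude was 33.5% at 207 nt. NSR1, a nucleolar protein of rRNA processing, fell from 11.8 RPM at 25 nt to 0.80 RPM at 200 nt and then lay between 3.30 and 4.37 RPM from 425 to 550 nt. Its highest amplitude was 25.6% at 204 nt, with 7.26% and 7.24% in the parts at the array period.

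The most even bodies were those of MNN1, a mannosyltransferase of the Golgi, and of GLR1, glutathione reductase, both with a CV of 12.2%. From 50 nt onward MNN1 (chrV:153520-155808) stayed between 6.21 and 9.72 RPM, and its mean over the body, 8.34 RPM, was the fifth highest of the members. GLR1 stayed between 5.25 and 8.59 RPM over the whole body. SKS1 (12.6%), BFA1 (12.9%), a regulator of mitotic exit, and YFR006W (13.8%) followed. Even bodies had depletions of very different depth, since the depletion had 2.50 RPM in SKS1 and 2.64 RPM in BFA1, and 8.04 RPM in MNN1 and 6.53 RPM in YFR006W. In SKS1 and BFA1 the +1 signal was 2.70 and 2.74 times the depletion, above the median ratio of 2.01 over all genes.

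**Figure D4:**
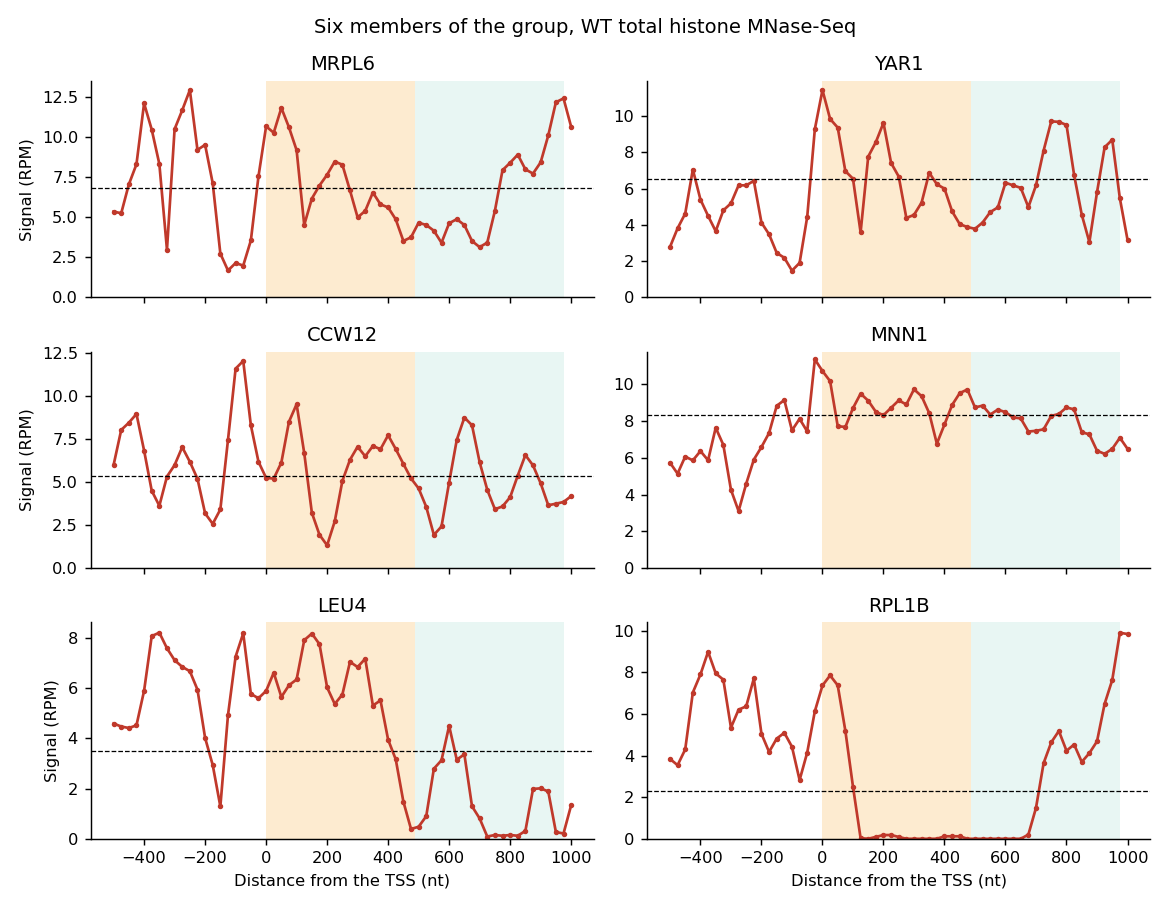
Signal in RPM against the distance from the TSS in nt for MRPL6, YAR1, CCW12, MNN1, LEU4 and RPL1B; shading marks the first and the second part of the body and the dashed line the mean over the body. MRPL6 and YAR1 show rows of peaks on both sides with a low middle, CCW12 deep troughs, MNN1 an even body, and LEU4 and RPL1B stretches near 0.

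A small set of members had stretches with hardly any signal. RPL1B (chrVII:254641-255294), a protein of the large ribosomal subunit, had the highest CV, 130%, and the lowest mean over the body, 2.29 RPM. It stood at 7.86 RPM at 25 nt, between 0 and 0.18 RPM from 150 to 650 nt, and at 9.91 RPM in the last bin. In RPL1B 47.1% of the 50-mers of the body occur once in the genome, and the body has a copy of 99.2% identity elsewhere. LEU4 (chrXIV:424895-426754), alpha-isopropylmalate synthase of leucine synthesis, fell from 8.18 RPM at 150 nt to 0.0901 RPM at 725 nt and has a copy of 90.5% identity elsewhere, with all its 50-mers unique. RPS1A (CV 93.6%) and RPL20B (CV 88.1%), both ribosomal proteins, likewise have copies.
Copies of at least 90% identity over at least 100 nt were found for 9 members, LEU4, RPL35A, RPL1B, RPL26A, YKL069W, CBP4, HTA2, RPL20B and RPS1A. That is 3.75% of the members, beside 4.20% of all genes and 15.4% of the genes with the highest modulus. In 7 members at least 1 bin of the body lay under 0.0901 RPM, the worth of 3 reads, and these were RPL35A, RPL1B, MRPS12, CBP4, RPL20B, YNL190W and RPS1A. That is 2.92% of the members, beside 4.25% of all genes and 16.25% of the genes with the highest modulus. How reads that match several places were mapped is not given in the sources used here, and its part in these stretches was not tested. DSK2, a ubiquitin-like shuttle factor of the proteasome, was the exception among the 5 highest CVs, with no copy, all 50-mers unique and 0.75 RPM at its lowest.

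The mean signal over the body had a median of 5.78 RPM in the members (quartiles 5.22 and 6.55 RPM) and of 6.30 RPM over all genes. The first part had 6.17 RPM in the members and 6.89 RPM over all genes. The second part had 5.41 and 5.69 RPM. The highest means were found in TAF13, a subunit of the general factor TFIID (8.99 RPM), DFP3 (8.56 RPM), ECM5 (8.48 RPM), GAS2, a glucanosyltransferase of the spore wall (8.40 RPM), and MNN1. The lowest were those of RPL1B, RPS1A (2.83 RPM), DSK2 (3.44 RPM), LEU4 (3.51 RPM) and PIB2, a regulator of the TOR pathway (3.63 RPM).

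The promoter side of the TSS was not used in the choice, except through the minimum of 3 RPM over the window. There the members pooled had a shallower depletion, though not in every class. The mean signal from -125 to -50 nt had a median of 5.44 RPM in the members (quartiles 3.91 and 6.78 RPM), 4.39 RPM over all genes and 4.27 RPM in the genes with the highest modulus. It was 4.59 RPM in the members with parts out of phase, near the value over all genes, 5.58 RPM in those with another period alone and 5.84 RPM in those with neither. In the short members, whose start and stop codons lie closer together than the body is long, it was 4.62 RPM. In percent of the signal from -500 to -150 nt it was 87.5% in the members and 65.1% over all genes. It exceeded the mean over the body in 98 members (40.8%), beside 20.3% of all genes. The ranges overlap widely, since the lower quartile of the members was 3.91 RPM and the upper quartile of all genes 5.72 RPM.
The signal of the depletion was lower than that of the +1 nucleosome (0 to 75 nt) in 195 members, or 81.3%, while 91.6% of all genes had this order. The +1 signal lies within the bins used for the choice. Of the 202 genes without this order in the annotated set, 45 were members (22.3%), beside 8.86% of the genes with it. The ratio of +1 to depletion had a median of 1.33 in the members and 2.01 over all genes. It was 1.64 in the members with parts out of phase, 1.33 in those with another period alone and 1.18 in those with neither. The members with the highest ratios were BUD20 (7.66), GIR2 (6.88) and NOG2 (6.79). BUD20 and NOG2 act in the making and export of the large ribosomal subunit. All 3 had their lowest upstream bin at -75 nt. That bin lies in the stretch used for the ratio, so its place follows in part from how the 3 were picked. Over all genes 52% had their lowest upstream bin in that stretch.

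The lowest ratios belonged to genes with a displaced or inverted pattern. HCM1, a forkhead transcription factor, had 6.72 RPM in the depletion and 3.08 RPM at +1, a ratio of 0.46. Its lowest bins were 0.45 RPM at -300 nt and 1.84 RPM at 50 nt, on either side of a peak that reached 8.93 RPM at -175 nt. HTA2, a core histone gene, had 10.9 RPM in the depletion and 5.37 RPM at +1, and its signal fell to 0.24 RPM at 150 nt. HTA2 is among the members with a copy elsewhere, and the part of multiply matching reads in this profile was not tested. FAA4, a long-chain acyl-CoA synthetase, had 7.15 and 3.93 RPM, with 2.45 RPM at 0 nt.
A lowest upstream bin outside -125 to -50 nt was common, and its position alone does not mark a displaced or inverted pattern. Between -400 and -25 nt the lowest bin had a median of 2.39 RPM in the members and of 2.19 RPM over all genes, so that members also held a low bin upstream. It lay outside -125 to -50 nt in 146 members (60.8%), while the share was 48% over all genes and 50.8% in the genes with the highest modulus. It lay between -275 and -150 nt in 81 members (33.8%, beside 27.9% of all genes) and between -400 and -300 nt in 57 (23.8%, beside 16.9%). In the members with parts out of phase it lay outside the usual stretch in 48.2%, in those with another period alone in 67.5% and in those with neither pattern in 67.5%. The unevenness of the signal from -500 to -150 nt was alike, with a median CV of 31.97% in the members and 32.7% over all genes. The start sites used by the authors are not in the tables, so a shifted depletion and a start site placed elsewhere cannot be told apart.

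**Figure D5:**
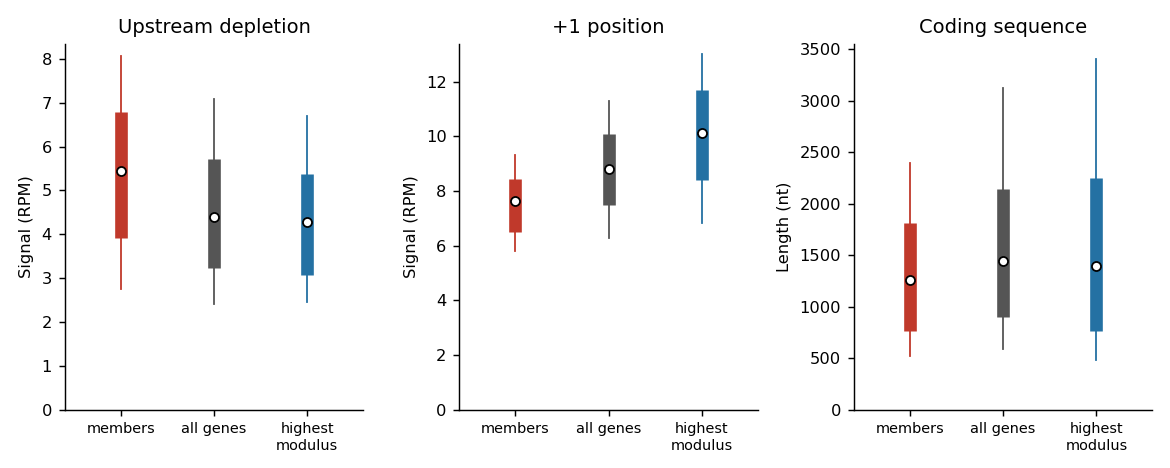
Signal in RPM of the depletion (-125 to -50 nt) and of the +1 position (0 to 75 nt), and length of the coding sequence in nt, for the members, all genes and the genes with the highest modulus. Circles are medians, thick bars quartiles and thin lines the 10th and 90th percentiles over genes; the median depletion is 5.44 RPM in the members and 4.39 RPM over all genes, and the bars of the groups overlap.

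At the TES the members were close to the other genes. The signal from -30 to 80 nt was lower than that from -140 to -70 nt in 152 members (63.3%), beside 61.9% of all genes. The ratio of the upstream to the TES signal had a median of 1.15 in the members and of 1.16 over all genes. Of the members with a coding sequence of at least 1200 nt, in which the window of the TES is apart from the body bins, 86 of 127 (67.7%) had the lower signal at the TES, beside 65.2% of all such genes. Over all lengths, the members with parts out of phase had a median ratio of 1.32 and those with neither pattern 1.10. In the genes with parts out of phase that were no members it was 1.08. In 47 of the members with parts out of phase the gene was shorter than the body. There the window of the TES can overlap the bins used for the choice.

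The members were somewhat shorter than the average gene, and length went with the class. The coding sequence had a median of 1257 nt in the members and 1441.5 nt over all genes. In 83 members (34.6%) the distance from start to stop codon was shorter than the body, so that the window could run past the gene, beside 27.7% of all genes. Of these short genes 12.48% were members and of the longer ones 9.04%. The classes were unevenly spread over length, since 47 of the 83 short members (56.6%) had parts out of phase, while 36 of the 157 longer ones (22.9%) did. Over all genes the shares were 26.9% of the short and 9.38% of the longer genes. Neither pattern was found in 11 short members (13.3%) and in 69 longer ones (43.9%). The median CV of the body was 32.3% in the short and 23.7% in the longer members.

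The surroundings differed in small steps. The distance to the neighbouring gene upstream had a median of 547 nt in the members and 472 nt over all genes. The upstream neighbour ran in the other direction in 130 members (54.2%), beside 51.5% of all genes. The start of a further gene lay within the body window of 21 members (8.75%), beside 4.70% of all genes, and a replication origin lay in that of 8 members (3.33%), beside 1.75%. An intron was annotated in 15 members (6.25%) and in 5.83% of all genes. The GC content of a stretch of the same length from the start codon had a median of 40.7% in the members, 39.6% over all genes and 38.2% in the genes with the highest modulus, and in the 300 bases around the start codon it was 37%, 36% and 35.7%.

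In those 300 bases, letters matching the Reb1 core were found in 12 members (5.0%), in 8.62% of all genes measured, in 11.7% of the genes with the highest modulus and in 7.08% of 6001 promoters of the genome. The members were COF1, PUP1, MRPS12, RTF1, TAF5, MRX12, GIR2, NOC4, CWC21, HST3, NHP2 and BFR2. Their depletions ranged from 1.15 RPM in GIR2 to 8.33 RPM in NHP2. The signal at +1 was higher than the depletion in all 12, beside 81.3% of all members and 91.6% of all genes. The Abf1 motif was found in 34 members (14.2%), beside 13.03% of all genes and 12% of the genome's promoters, and the Rap1 motif in 1 member (0.42%), beside 0.46% and 0.50%. TATAAA was found in 42.1% of the members, beside 42.96% and 45.2%, and a run of 8 A on either strand in 81 (33.8%), beside 32.1% and 32.1%. Both strands were searched. A match is letters only, and binding was not measured.

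The members came from many functions. Of the 27 mitochondrial ribosomal proteins measured, 6 were members (22.2%), beside 9.98% of all genes. These were MRPL6, MRPS12, MRPL49, MRPL16, MRPL36 and IMG1. Of the 107 cytosolic ribosomal proteins 10 were members (9.35%), of which RPL1B, RPL20B, RPL26A, RPL35A and RPS1A have copies elsewhere. Of the 21 proteasome subunits 5 were members (23.8%). PRE5, PUP1, PRE6 and PRE10 encode parts of the core particle and RPN12 a part of the regulatory particle that caps it. All 5 had parts out of phase, beside 34.6% of all members and 14.3% of all genes, with differences from 153° to 170°. Opposite phases lower the modulus by construction. The depletions of the 5 ranged from 1.98 RPM in RPN12 to 4.28 RPM in PUP1, and their +1 signals from 7.58 to 9.13 RPM. In each the depletion was thus lower than +1, as in 91.6% of all genes.

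Of 10 cell wall mannoproteins measured, 4 were members (40%), namely TIP1, SCW11, CCW12 and SPI1. In these the depletion held 6.53, 11.7, 9.86 and 5.92 RPM in that order, and the ratio of +1 to depletion was 0.78, 0.95, 0.64 and 1.00. None of the 4 had its lowest upstream bin between -125 and -50 nt, and it lay at -250, -375, -175 and -275 nt. That bin lay outside this stretch in 60.8% of all members and in 48% of all genes. Of 12 genes of glycolysis and fermentation 3 were members (25%), ADH5, TPI1 and GPM1. TPI1, triosephosphate isomerase, had 8.60 RPM in the depletion and 7.76 RPM at +1, and its lowest upstream bin lay at -400 nt. Of 6 histone genes HHO1 and HTA2 were members. HHO1, the linker histone, had parts out of phase by 168.9° with amplitudes of 27.5% and 25.7%.

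Of 43 genes of chromatin remodelers, histone chaperones and SPT genes, 3 were members (6.98%), SPT8, SPT3 and ARP4. SPT3 and SPT8 belong to the SAGA coactivator and had ratios of +1 to depletion of 0.62 and 0.88. ARP4, an actin-related protein of INO80 and other complexes, had 1.74. Of 55 amino acid biosynthesis genes 4 were members (7.27%), LEU4, MET22, ILV5 and GCN4, and of 22 termination and CTD phosphatase genes 1 (4.55%), AIR1. Of 26 transporters 4 were members (15.4%), BAP2, TAT1, GAP1 and MUP1. None of 30 cyclins and CDC genes, 6 general regulatory factors or 4 RNA Polymerase II subunits was a member. The remaining lists held 2 of 21 heat shock chaperones (HSP31 and HSP104), 2 of 14 phosphate-regulated genes, 1 of 14 genes of sugar use, 2 of 11 mating genes, 1 of 6 meiotic genes, 2 of 13 tRNA synthetases and 2 of 13 ergosterol genes. With so few genes in a list, these shares are counts and were not tested.

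The other members with the lowest modulus were CHO1, phosphatidylserine synthase (0.27%), ZRT2, a zinc transporter (0.60%), PEX2, of peroxisomal import (0.67%), HSP31, a stress chaperone (0.97%), IST2, a tether of the endoplasmic reticulum (0.99%), NSR1 (1.15%), YJL213W (1.23%), ACS2, acetyl-CoA synthetase (1.55%), and LEU4 (1.82%). All of these lie under the amplitude that counting alone gives in the median member, so their order is not resolved. They were of all 3 classes. PEX2 had parts out of phase with 11.99% and 11.4%, ZRT2 a wave of 13.95% just below 200 nt, and HSP31 no amplitude above 6.48% at any period from 130 to 210 nt and a CV of 16.02%.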

How the data were processed

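Chromatin of WT cells was digested with micrococcal nuclease by the authors, sequenced on a SOLiD instrument and mapped to sacCer3 with bfast. The authors then computed a coverage signal in RPM along genes with ngs.plot, and the deposited tables hold 101 columns per gene around the TSS and the TES. The ngs.plot version, the read extension and the transcript annotation are not given in the sources used here. The methods say that average gene plots of gene classes combined biological replicates of a genotype, but not whether this holds for the MNase-Seq table. Extension and binning lower the contrast between peaks and troughs.

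Beyond the window each profile is padded with its edge value over 20 columns per side, which were dropped, and the 61 others were placed evenly over -500 to 1000 nt and -200 to 200 nt. The array period is 165 nt, the body runs from 0 to 975 nt, and the modulus is that of the sum of each value times exp(-i x) with x the position as an angle at that period. The minimum of 3 RPM was applied to the mean of the 61 columns. Depth was read from the step of the edge values (33313700 reads). Of the 2426 genes, 2424 were found in the R64 annotation (NCBI RefSeq), all 240 members among them. Shares of annotated features are over the 2402 of these that passed the minimum. Windows of sequence start at the start codon, since TSS positions were not used here. The codon adaptation index compares a gene's codons with those of cytosolic ribosomal protein genes. Copies were searched with blastn 2.17.0. Computations ran under Python 3.11.15 with pandas 2.3.3, scipy 1.17.1 and numpy 2.4.6, figures were drawn with matplotlib 3.10.9, and the scripts were tested on simulated data.

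No test was made, since 1 library was analysed. Named are the 10 members with the lowest modulus, the 3 genes on either side of the limit, the 5 highest and lowest in CV and body signal, the 5 with the highest wave at another period, the 3 highest and lowest in the ratio of +1 to depletion, list members and genes the study names. YAR1, the printed contrast gene COQ8, genes named in the closing observations and the members of printed counts were chosen after their values were seen. The members and lists were chosen with earlier results of these data known. The alternatives change the period, the window, the minimum, the share kept, the scale and the genes admitted.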

Additional observations from a re-analysis of the deposited data

How the results depend on the processing

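The choice of members was repeated under 13 alternatives, 12 planned and 1, without genes that have a copy elsewhere, chosen after seeing the data. The alternatives gave 78 values, of which 69 stayed within the 95% interval of the reported value, a binomial interval over genes that serves as a yardstick only. Divided by the standard deviation in place of the mean, the highest amplitude rose to a median of 17.4%, the CV to 36.8%, and the coding length was 931.5 nt, with 157 members kept. With only genes of at least 1000 nt of coding sequence these were 11.5%, 23.7% and 1686 nt, the last by construction, with 153 kept. With the body from 0 to 650 nt the highest amplitude was 12.1%, and a divergent neighbour was found for 47.1%. At a period of 170 nt, 86.3% had a depletion lower than +1. With the body from 150 nt onward 130 members were kept. The lowest 5% of genes are 120 of the members by construction, and all 240 were kept without a minimum and in the lowest 20% of genes. Except where a value follows from construction, the cause was not tested. No paired analysis was possible because 1 library was analysed.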

Other observations

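The codon adaptation index, a measure of codon bias that is high in strongly expressed genes, had a median of 0.23 in the members and of 0.23 over all genes. The members held 28 genes (11.7%) of the highest 10% and 33 genes (13.8%) of the lowest 10% of all genes. Among the members at the high end were CCW12 (0.87), RPL1B (0.86), TPI1 (0.85) and ACT1, actin (0.76), and PEX2 (0.14) and PIB2 (0.15) were at the low end. ACT1 had an amplitude of 4.90% at the array period and of 15.6% at 206 nt, with 5.69 RPM in the depletion and 6.79 RPM at +1.

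The share of members ran from 6.51% of the genes on chromosome XVI to 19.05% (8 of 42 genes) on chromosome VI. The deepest depletion of the members was that of ERC1, 0.83 RPM, and the shallowest was that of SCW11, 11.7 RPM.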
